A study of Homo sapiens with 4 samples.

Results

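The tumour necrosis factor (TNF) superfamily was examined in the transcriptomes of the breast cancer cell lines MDA-MB-231 and LM2-4175. Its members were taken by gene name: every TNFSF or TNFRSF gene of the deposited table, together with TNF, LTA, LTB, LTBR, CD70, CD27, CD40, CD40LG, FAS, FASLG, NGFR, EDA2R and EDAR. This rule, which uses no measured value, found 45 of the 57815 genes in the table, namely 17 ligands and 28 receptors. MDA-MB-231 cells are triple-negative, that is, they lack hormone receptors and HER2 amplification, and LM2-4175 cells (LM2 for short) are of the same origin and metastasize to the lung. Both were untreated and grown in DMEM with foetal bovine serum. Total RNA was sequenced from 2 libraries of each cell line, and the authors joined the libraries of a cell line in 1 FPKM per gene, a read pair count divided by transcript length and sequencing depth, with a lower and an upper bound, which stand below in brackets after each FPKM. No value per library was examined, so no replicate error was computed for the differences below. How far the bounds reflect the spread between libraries is not given in the sources used here. Each arm is 1 cell line, and what separates these lines cannot be told apart from what separates metastatic from less metastatic cells in general.

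TNF superfamily ligands are mostly made as membrane proteins that act as trimers, and some are cut from the cell surface to become soluble. Their receptors bind the ligand through cysteine-rich repeats and signal in different ways. Death domain receptors can recruit FADD and caspase-8 to start apoptosis, decoy receptors bind a ligand without passing on a full signal, and the other receptors recruit TRAF adaptors that lead to NF-kB and MAP kinases. In tumours the family is known for its part in inflammation, cell death and the contact between cancer cells and lymphocytes.

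The cell lines carried transcripts known from mesenchymal breast cancer cells, beside some luminal ones. Vimentin (VIM) was at 1355 FPKM in MDA-MB-231 cells and 1768 FPKM in LM2, the other 4 of the 5 identity genes (CD44, EGFR, AXL and SPARC) were at 13.6 FPKM or more in both, with SPARC called higher in LM2, and the hormone receptor genes ESR1 and PGR were at 0.0331 FPKM or less. Of 5 luminal genes, KRT19 was called lower in LM2 (250.3 to 36.3 FPKM). ERBB2 (34.95 and 22.76 FPKM) and GATA3 (3.10 and 2.42 FPKM) were present in both and not called. White blood cells use many members of this family. The 14 white blood cell markers summed to 5.96 FPKM in MDA-MB-231 cells and 4.21 FPKM in LM2. Of these 14, 6 were listed at 0 in at least 1 of the cell lines. PTPRC, which encodes CD45, was at 0.0767 and 0.0263 FPKM. The 3 that could be tested, CSF1R (2.92 and 0.79 FPKM), CD14 (1.17 and 1.75 FPKM) and CD8A (1.02 and 1.19 FPKM), were not called. The 5 stroma markers summed to 17.1 and 35.8 FPKM, with COL1A1 called higher and PDGFRB and LUM called lower in LM2. The 3 endothelium markers found summed to 1.02 and 2.63 FPKM, and KDR was called higher. The part of these markers in the changes below was not tested. In such bulk RNA, fewer cells with a transcript and less of it per cell cannot be told apart.

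The change of a gene is its log2(FPKM + 1) in LM2 less that in MDA-MB-231. Adding 1 makes the change of genes near 0 look smaller than it is. Calls were made where a gene had status OK in both cell lines and where its mean reached at least 0.5 FPKM, the change on this scale was at least 1.5-fold and the bounds of the cell lines lay apart. Of the 45 members, 4 were listed at 0 in both cell lines, 16 had a mean under 0.5 FPKM, and 25 were tested. Of these 25, 5 were called higher (CD70, TNFSF15, TNFSF4, TNFRSF10D and TNFRSF19) and 3 lower (TNFSF10, CD40 and NGFR), which is 32.0%. Among all 13911 genes tested, 9.27% were called, 4.67% as higher and 4.61% as lower. As CD70, TNFSF15 and TNFSF4 were under 0.5 FPKM in MDA-MB-231 cells and passed the filter through LM2, the counts were repeated without the filter. There, 8 of 41 members (19.5%) and 5.09% of all genes were called. The median log2 change was 0.19 for the members tested and -0.04 for all genes tested. CD70, TNFSF15 and TNFSF4, tested only through LM2, also push up the median of the members.

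**Figure D1:**
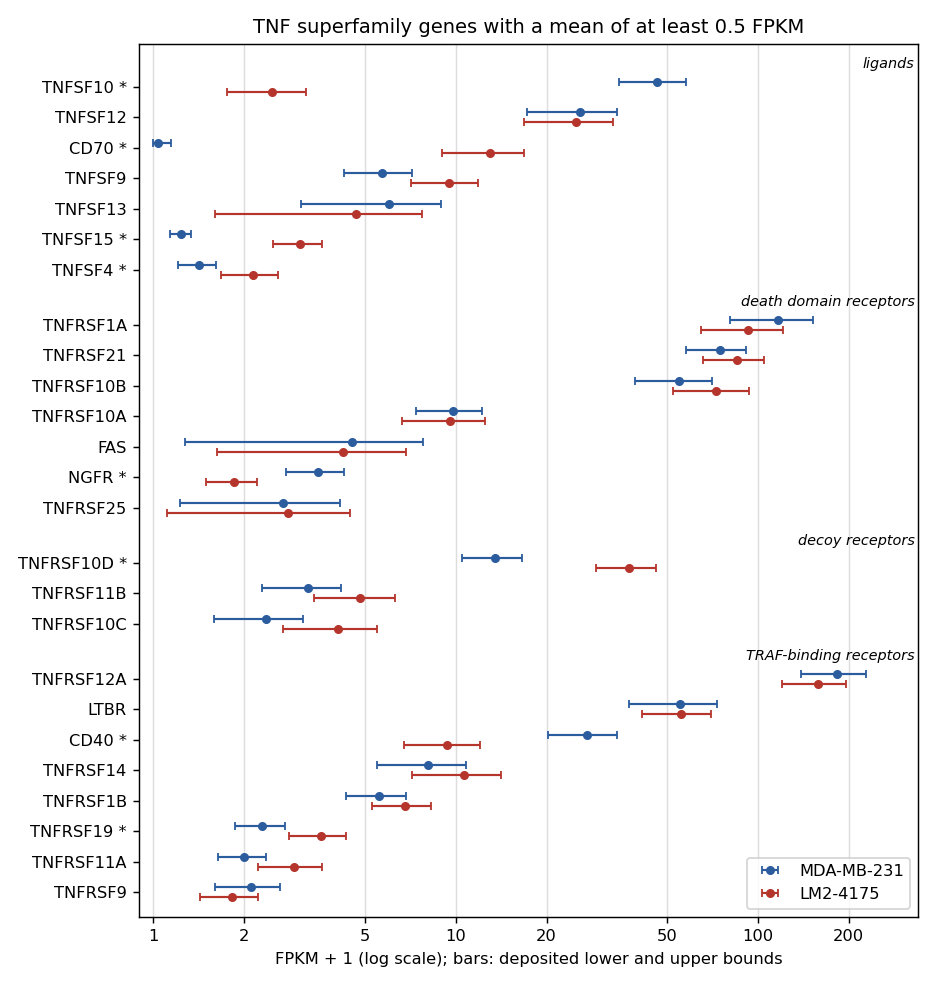
FPKM + 1 on a log axis for the 25 TNF superfamily genes with a mean of at least 0.5 FPKM, in MDA-MB-231 (blue) and LM2-4175 (red). Points are the authors' pooled values, bars run from the lower to the upper bound, and an asterisk marks a called gene. The bounds lie apart for 8 genes, most widely for TNFSF10 and CD70.

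Among the 25 members tested, the changes of the ligands TNFSF10 and CD70 were the largest by size. TNFSF10 encodes TRAIL, a ligand that can kill tumour cells through its death receptors (ENSG00000121858, chromosome 3 of GRCh37, 172223298 to 172241265, minus strand). It had 45.4 FPKM in MDA-MB-231 (33.7 and 57.0) and 1.47 FPKM in LM2 (0.75 and 2.20). The log2 change was -4.23, the FPKM ratio was 30.8 in favour of MDA-MB-231, and even the nearest bounds lay 15.4-fold apart. TNFSF10 was the highest ligand in MDA-MB-231, with 56.0% of the summed FPKM of the 17 ligands, and moved from percentile 81.7 of the genes tested to percentile 13.5 in LM2.

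CD70, a ligand known from activated lymphocytes, moved the other way (ENSG00000125726, chromosome 19, 6583194 to 6604114, minus strand). Its level was 0.0359 FPKM in MDA-MB-231 (0 and 0.146) and 11.97 FPKM in LM2 (8.05 and 15.9), a log2 change of 3.65. As the lower bound in MDA-MB-231 is 0, the ratio is better read from the nearest bounds, which lay 55.0-fold apart. CD70 stood at percentile 0.453 of the genes tested in MDA-MB-231 cells and at percentile 50.9 in LM2, where it held 22.5% of the ligand sum. CD70 was among the genes tested only through LM2, and genes as low in both cell lines were left out. Its percentile in MDA-MB-231 therefore adds no support to the change.

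TNFSF15 and TNFSF4 also rose in LM2, from low levels. TNFSF15, which encodes TL1A (ENSG00000181634, chromosome 9, 117546932 to 117568319, minus strand), went from 0.234 FPKM (0.134 and 0.333) to 2.06 FPKM (1.495 and 2.62), with a log2 change of 1.31 and nearest bounds 4.49-fold apart. TNFSF4, which encodes the T cell costimulator OX40L (ENSG00000117586, chromosome 1, 173152870 to 173176470, minus strand), went from 0.413 FPKM (0.210 and 0.617) to 1.13 FPKM (0.682 and 1.59). Its log2 change of 0.59 was barely past the 1.5-fold threshold its nearest bounds were 1.11-fold apart, and it was not called at 2-fold.

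The other 3 ligands tested were not called. TNFSF9, which encodes the costimulator 4-1BBL, had 4.71 FPKM (3.26 and 6.16) in MDA-MB-231 cells and 8.51 FPKM (6.14 and 10.9) in LM2. This log2 change of 0.74 was past 1.5-fold, and the bounds overlapped by a narrow margin. TNFSF9 was called higher after scaling both cell lines to the same sum, and also when the fold or the combined standard errors took the place of the bounds. TNFSF12, which encodes TWEAK, had 24.8 FPKM (16.3 and 33.3) and 24.0 FPKM (15.9 and 32.1), and its log2 change of -0.05 turned to 0.03 with equal sums. TNFSF13, which encodes APRIL, had 5.03 FPKM (2.09 and 7.96) and 3.68 FPKM (0.605 and 6.76). Exons of other genes, mainly the readthrough gene TNFSF12-TNFSF13, cover 55.5% of the exon bases of TNFSF13 and 13.7% of those of TNFSF12.

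With TNFSF10 down and CD70 up, the order of the ligands differed between the cell lines. In MDA-MB-231, TNFSF10 and TNFSF12 together held 86.6% of the ligand sum of 81.0 FPKM. In LM2 the sum was 53.2 FPKM, of which TNFSF12 held 45.0%, and TNFSF12, CD70 and TNFSF9 together held 83.5%. The bounds of CD70 in LM2 overlap those of TNFSF12 above it and of TNFSF9 below it, so its place between them is not resolved, while the bounds of TNFSF12 and TNFSF9 lie apart. Nor is the order of TNFSF9 and TNFSF13 in MDA-MB-231 resolved.

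**Figure D2:**
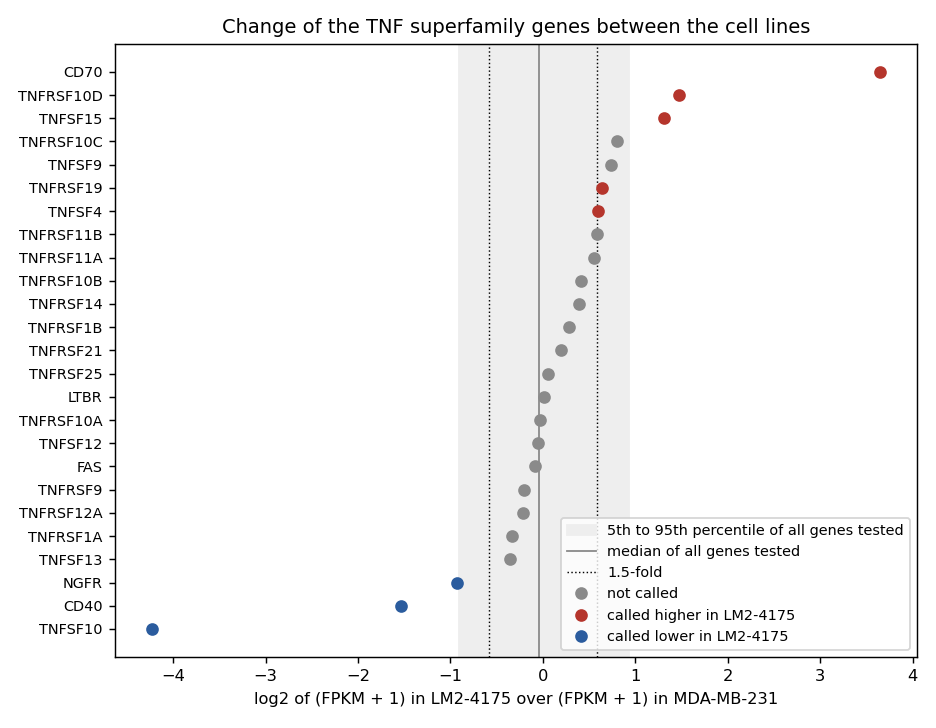
Log2 change of FPKM + 1 from MDA-MB-231 to LM2-4175 for the 25 genes tested, ordered by size, with called genes in red (higher) and blue (lower). TNFSF10, CD40, NGFR (-0.93), TNFSF15, TNFRSF10D and CD70 lie outside the band from the 5th (-0.91) to the 95th percentile (0.93) of all genes tested, NGFR by a narrow margin.

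The remaining 10 ligands were low or listed at 0. TNFSF18, TNFSF13B, TNFSF14, FASLG, CD40LG, TNFSF11 and TNFSF8 stayed at 0.265 FPKM or less in both cell lines. TNF, LTA and LTB, which lie side by side in 10.5 kb of chromosome 6, were listed at exactly 0 in both, with a status of OK. These zeros say little about the genes themselves. Of the 101 protein-coding genes within 1 Mb of TNF, TNF included, 78 (77.2%) were listed at 0 in both cell lines, against 12.3% of the 19302 other protein-coding genes. CSNK2B and BAG6, genes that cells use widely and that lie in this window, were among them. The zeros of TNF, LTA and LTB were therefore not read as absence of the transcripts, and the cause of the zeros in this window was not tested.

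For the called ligands that RefSeq promoter windows were given for, the sequence around a RefSeq start is shown because these ligands were called, in either direction. A window holds 250 bases before and 50 bases after that start, on GRCh38.p14, and 29 of the 45 members had one. The windows were not matched to the gene positions given above. A start at the 5′ end of a gene therefore cannot be told apart from one inside it. Not among them were CD40, CD40LG, CD70, EDAR, NGFR, TNFRSF10A, TNFRSF10B, TNFRSF10C, TNFRSF10D, TNFRSF11B, TNFRSF12A, TNFRSF13C, TNFRSF17, TNFRSF4, TNFSF12 and TNFSF8. The windows below run 5′ to 3′ on the minus strand, at chr3:172523381-172523680 for TNFSF10, chr9:114792481-114792780 for TNFSF15 and chr1:173205483-173205782 for TNFSF4. Capitals mark matches to motifs searched on both strands.

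TNFSF10: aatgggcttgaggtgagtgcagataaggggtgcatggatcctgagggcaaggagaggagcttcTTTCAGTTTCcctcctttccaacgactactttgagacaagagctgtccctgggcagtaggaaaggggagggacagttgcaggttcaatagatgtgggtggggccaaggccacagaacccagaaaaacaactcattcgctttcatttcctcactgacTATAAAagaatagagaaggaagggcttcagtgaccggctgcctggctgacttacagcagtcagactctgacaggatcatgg
TNFSF15: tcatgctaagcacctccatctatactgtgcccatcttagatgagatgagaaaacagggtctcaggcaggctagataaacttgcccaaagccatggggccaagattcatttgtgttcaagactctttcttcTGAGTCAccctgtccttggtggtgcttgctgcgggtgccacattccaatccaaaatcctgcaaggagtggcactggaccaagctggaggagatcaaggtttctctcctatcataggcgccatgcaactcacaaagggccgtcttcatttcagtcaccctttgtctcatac
TNFSF4: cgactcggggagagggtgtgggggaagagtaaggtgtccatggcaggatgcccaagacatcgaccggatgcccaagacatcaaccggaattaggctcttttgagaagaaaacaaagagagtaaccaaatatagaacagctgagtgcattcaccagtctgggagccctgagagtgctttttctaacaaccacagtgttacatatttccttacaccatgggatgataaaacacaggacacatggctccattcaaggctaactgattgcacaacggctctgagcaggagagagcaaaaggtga

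The TNFSF10 window, of the ligand that fell, held a match to GAAANNGAAA, the core of the interferon-stimulated response element, 187 bases before the start and read on the opposite strand. It also held the TATA box letters TATAAA, 31 bases before the start. These motifs were found in 3.57% and in 11.5% of all 35116 windows. The TNFSF15 window held the AP-1 letters TGANTCA 120 bases before the start, which 7.71% of all windows do. The TNFSF4 window held none of these, and none of the 3 held the NF-kB consensus, which was found in 11.3% of all windows. The 29 member genes had 39 windows, so that a gene could match more than once. Over genes, the NF-kB consensus was in 10 of 29 (34.5%, against 13.3% of all 27305 genes with a window) and the AP-1 letters in 7 (24.1% against 9.37%). The interferon core was in 6 (20.7% against 4.38%), and the TATA letters were in 6 (20.7% against 14.0%). These shares were not tested. The motifs do not overlap one another in the windows shown, and a match does not show that a factor binds.

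TRAIL is bound by 5 receptors of the family, and none of them was called lower. The death receptor TNFRSF10B (DR5) had 53.8 FPKM (38.3 and 69.3) in MDA-MB-231 cells and 72.0 FPKM (51.5 and 92.5) in LM2. TNFRSF10A (DR4) had 8.83 FPKM (6.41 and 11.2) and 8.60 FPKM (5.66 and 11.5). Neither was called, with log2 changes of 0.41 for TNFRSF10B and of -0.03 for TNFRSF10A, the latter turning to 0.04 with equal sums and 0.01 after centring on the median.

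The decoy TNFRSF10D (DcR2, ENSG00000173530, chromosome 8, 22993101 to 23021540, minus strand) rose. It had 12.5 FPKM (9.48 and 15.6) in MDA-MB-231 cells and 36.5 FPKM (28.1 and 44.9) in LM2, which gave a log2 change of 1.47 and a 2.91-fold FPKM ratio. The nearest bounds were 1.80-fold apart. TNFRSF10C (DcR1) had 1.35 FPKM (0.585 and 2.12) and 3.09 FPKM (1.70 and 4.49), and TNFRSF11B (osteoprotegerin, a secreted decoy that also binds RANKL) had 2.24 FPKM (1.30 and 3.18) and 3.84 FPKM (2.39 and 5.29). Neither was called. The log2 change of TNFRSF10C was 0.80 with overlapping bounds, and that of TNFRSF11B was 0.58, just under 1.5-fold, with overlapping bounds as well. TNFRSF10C was called higher when the fold or the combined standard errors took the place of the bounds. Other annotated genes cover 33.0% of its exon bases. Such overlaps reached 10% of the exon bases in 10 of the 45 members, and their part in the values was not tested. TNFRSF10A to TNFRSF10D are duplicated genes within 205 kb, and how reads that match more than 1 of them were shared is not given in the sources used here.

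Summed over genes, the decoys TNFRSF10C, TNFRSF10D and TNFRSF11B stood at 16.1 FPKM in MDA-MB-231 cells and 43.5 FPKM in LM2, while TNFRSF10A and TNFRSF10B stood at 62.7 and 80.6 FPKM. The ratio of decoys to death receptors was 0.258 in MDA-MB-231 cells and 0.539 in LM2. Taking the bounds of all 5 genes at their extremes, the ratio ranged from 0.141 to 0.468 and from 0.310 to 0.957. As these ranges overlap, the change of the ratio is not resolved by the bounds. The decoy TNFRSF6B, which binds FasL, was at 0.128 and 0.263 FPKM, and other genes cover 100% of its exon bases.

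**Figure D3:**
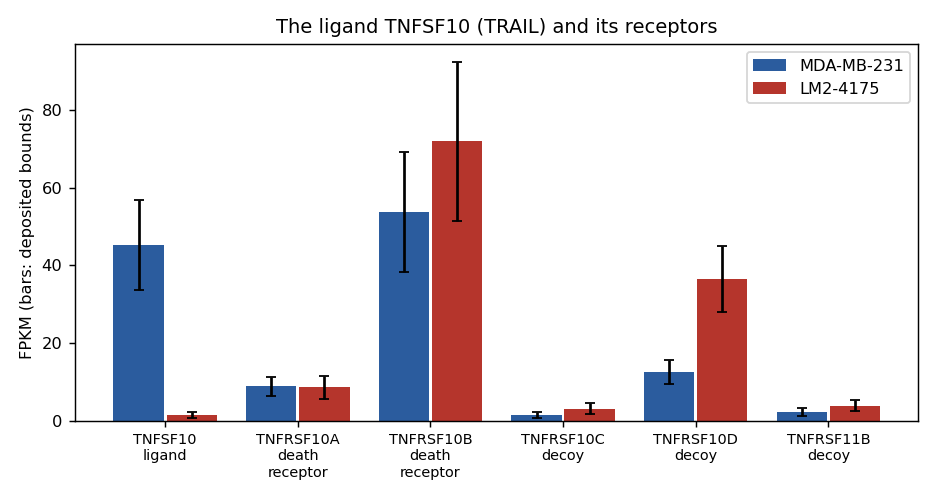
FPKM of the ligand TNFSF10 and its 5 receptors in MDA-MB-231 (blue) and LM2-4175 (red), as bars from 0 with the authors' bounds. TNFSF10 goes from 45.4 to 1.47 FPKM, TNFRSF10D from 12.5 to 36.5 FPKM, and the bounds of the other 4 receptors overlap.

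Of the 7 death domain receptors tested, NGFR was called and 6 were not (14.3% called, beside 9.27% of all genes tested). TNFRSF1A, the main TNF receptor, had 115.8 FPKM (80.2 and 151.5) in MDA-MB-231 cells and 91.9 FPKM (64.0 and 119.8) in LM2. TNFRSF21 (DR6) had 73.8 FPKM (56.9 and 90.7) and 84.1 FPKM (64.7 and 103.6). Their log2 changes of -0.33 and 0.19 were under 1.5-fold, and the bounds overlapped. FAS, the receptor of FasL, was at 3.54 FPKM (0.277 and 6.80) and 3.25 FPKM (0.631 and 5.88), with bounds too wide to resolve even a 2-fold change. TNFRSF25 (DR3), the receptor of TNFSF15, was at 1.69 FPKM (0.224 and 3.15) and 1.79 FPKM (0.108 and 3.47), and EDAR was at 0.00451 FPKM or less.

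NGFR, the low-affinity neurotrophin receptor p75 (ENSG00000064300, chromosome 17, 47572655 to 47592370, plus strand), fell from 2.51 FPKM (1.74 and 3.27) to 0.844 FPKM (0.491 and 1.197). The log2 change was -0.93 and the nearest bounds were 1.45-fold apart, so it was called lower at 1.5-fold and not at 2-fold. Other genes, with NGFR-AS1 on the opposite strand among them, cover 27.2% of its exon bases, and without strand their reads cannot be told apart from those of NGFR.

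Among the TRAF-binding receptors, CD40 fell. CD40, which is known for licensing antigen-presenting cells (ENSG00000101017, chromosome 20, 44746910 to 44758502, plus strand), had 26.2 FPKM (19.2 and 33.2) in MDA-MB-231 cells and 8.39 FPKM (5.76 and 11.01) in LM2. That is a log2 change of -1.53, with nearest bounds 1.75-fold apart and no exon of another gene on its exons. TNFRSF19 (TROY, ENSG00000127863, chromosome 13, 24144509 to 24250243, plus strand) rose from 1.30 FPKM (0.861 and 1.73) to 2.58 FPKM (1.82 and 3.35). Its log2 change was 0.64, its nearest bounds were only 1.05-fold apart, and it was not called at 2-fold.

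The highest receptor of the family, TNFRSF12A (Fn14, the receptor of TWEAK), had 182.5 FPKM (137.7 and 227.3) and 156.9 FPKM (119.2 and 194.7), and LTBR, the lymphotoxin beta receptor, had 54.3 FPKM (36.4 and 72.2) and 54.7 FPKM (40.2 and 69.2). Neither was called. TNFRSF14 (HVEM) was at 7.14 FPKM (4.48 and 9.79) and 9.66 FPKM (6.16 and 13.2), and TNFRSF1B, the second TNF receptor, at 4.59 FPKM (3.33 and 5.86) and 5.80 FPKM (4.28 and 7.32). TNFRSF11A (RANK) had 0.998 FPKM (0.635 and 1.36) and 1.93 FPKM (1.22 and 2.63), a log2 change of 0.55 with overlapping bounds. TNFRSF9 (4-1BB) was at 1.11 FPKM (0.601 and 1.62) and 0.823 FPKM (0.426 and 1.22). The lymphocyte receptors TNFRSF18, TNFRSF13C, TNFRSF8, CD27, TNFRSF17, TNFRSF4 and TNFRSF13B stayed at 0.467 FPKM or less, and EDA2R was listed at 0 in both cell lines.

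Summed over the family, the receptor level was close in the cell lines. The 28 receptors summed to 555.1 FPKM in MDA-MB-231 cells and 547.7 FPKM in LM2, and TNFRSF12A, TNFRSF1A, TNFRSF21, TNFRSF10B and LTBR held 86.5% and 83.9% of these sums. Of 18 receptors tested, 2 were called higher and 2 lower (22.2%), with a median log2 change of 0.12. Of 7 ligands tested, 3 were called higher and 1 lower (57.1%), with a median of 0.59. Among all genes tested, 9.27% were called, with a median of -0.04. The 3 ligands called higher passed the filter only through LM2, which pushes up the count and the median of the ligands. The difference between ligands and receptors was not tested.

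Ligands and receptors were then set side by side in 32 pairs that are known to bind. As the zeros of TNF, LTA and LTB were not read as absence, the 6 pairs with these ligands were left unjudged, and 26 pairs remain. Among these, both partners reached 1 FPKM in 7 pairs in MDA-MB-231 cells and in 7 pairs in LM2, and 6 of these were the same pairs: TNFSF10 with each of its 5 receptors, and TNFSF12 with TNFRSF12A. TNFSF9 with TNFRSF9 reached it in MDA-MB-231, where TNFRSF9 was at 1.11 FPKM, and TNFSF15 with TNFRSF25 in LM2. The bounds do not resolve these counts. TNFSF10 was 30.8-fold lower in LM2 by FPKM, and its bounds there (0.75 and 2.20) lie on either side of 1 FPKM. So do the bounds of TNFRSF9 and of TNFRSF25 in both cell lines, and those of TNFRSF10C in MDA-MB-231 cells (0.585 and 2.12). CD70 had no such partner, since its receptor CD27 was listed at 0 in MDA-MB-231 cells and at 0.0561 FPKM (0 and 0.331) in LM2. TNFSF4 likewise stood without TNFRSF4, which was at 0.0118 FPKM in MDA-MB-231 cells and listed at 0 in LM2. CD40 was found without CD40LG, which was at 0.0126 FPKM or less.

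Genes that neighbour the called members on the chromosome were read for comparison. Within 1 Mb of TNFSF10, 5 protein-coding genes were tested, none was called, and their median log2 change was 0.22. The neighbours of CD40 (25 genes), NGFR (25), TNFRSF10D (21), TNFSF4 (10), TNFSF15 (7) and TNFRSF19 (5) had medians of 0.01, 0.03, -0.07, -0.05, -0.02 and 0.12. None was called around TNFSF4 and TNFRSF19, 1 around TNFSF15 (TNC, which rose from 13.6 to 55.8 FPKM), and 2 to 4 around each of the others. Among the latter were STC1 near TNFRSF10D (16.9 to 154.7 FPKM, log2 change 3.12) and COL1A1 near NGFR (3.16 to 30.98 FPKM, 2.94). Their starts lay 690.8 and 706.3 kb away. CD70 lay among genes that leaned higher, with 30 of 38 neighbours above 0 and a median of 0.21. Of these 38, 3 were called higher, a share no larger than that called among all genes tested. Of all 13911 genes tested, 6326 were above 0 and 9.27% were called, with a median of -0.04. The 3 neighbours of CD70 that were called are, like TNC, STC1 and COL1A1, named after their values were seen. C3, the central complement gene, went from 6.45 to 116.6 FPKM at a start 126.5 kb away. VAV1 went from 0.448 to 10.8 FPKM at 168.6 kb, and TUBB4A from 0.0600 to 1.88 FPKM at 101.3 kb. VAV1 and TUBB4A were under 0.5 FPKM in MDA-MB-231 cells and passed the filter through LM2. The same holds for DENND1C (0.0759 to 1.28 FPKM) and CTB-54O9.9 (0.431 to 0.688 FPKM), which were not called. Such genes push up the count above 0. CD70, TNFSF9 and TNFSF14 themselves lie within 139.6 kb, and TNFSF14 was at 0 FPKM in MDA-MB-231 cells and at 0.0757 FPKM (0.00287 and 0.149) in LM2.

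**Figure D4:**
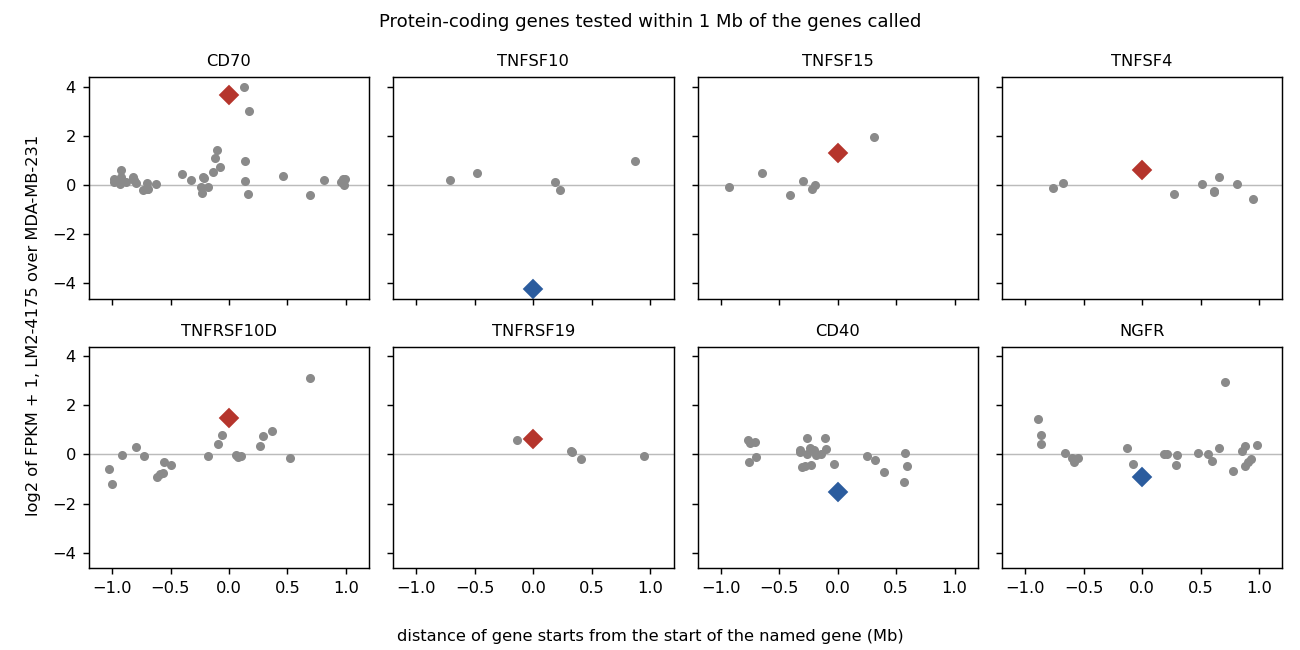
Log2 change of protein-coding genes tested within 1 Mb of each called member (grey points), by the distance of their starts from that of the member (diamond, red where higher and blue where lower in LM2-4175). Around TNFSF10 the 5 neighbours lie between -0.22 and 0.97 while TNFSF10 is at -4.23, and around CD70 the points of C3 (3.98) and VAV1 (3.02) stand near that of CD70 (3.65). High points also stand around TNFRSF10D (STC1, 3.12) and around NGFR (COL1A1, 2.94), which itself is at -0.93.

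Downstream of the receptors, the feedback inhibitors of the pathway held 4 of the 8 calls in 6 lists. These lists had 40 genes tested, of which 20% were called, and 9.27% of all genes tested were. The lists of TRAF adaptors and of non-canonical NF-kB had 1 call each (16.7%). Those of death domain adaptors and effectors and of ligand-cutting genes also had 1 each (12.5%). Of 8 feedback genes tested, 4 were called higher and none lower, with a median log2 change of 0.75, and all genes tested had a median of -0.04. TNFAIP3 (A20, a ubiquitin-editing enzyme) rose from 2.72 FPKM (1.59 and 3.84) to 11.2 FPKM (6.63 and 15.8), and its partner TNIP1 rose from 94.7 FPKM (70.0 and 119.4) to 241.6 FPKM (174.1 and 309.0). TNIP3 rose from 0.342 to 3.06 FPKM, and NFKBIA, the inhibitor of NF-kB, had a log2 change of 0.82. TNIP3 was under 0.5 FPKM in MDA-MB-231 cells and passed the filter only through LM2. It pushes up the count and the median of the feedback list, and the count over the 6 lists. CYLD, NFKBIE, TNIP2 and FAM105B were not called, with changes of 0.69, 0.34, -0.37 and -0.47.

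Of 6 TRAF adaptors, TRAF1 was called higher (3.69 to 7.43 FPKM, log2 change 0.85), while TRAF2 to TRAF6 lay between -0.34 and 0.37 and were not called. Of 6 genes of non-canonical NF-kB signalling, the arm used by CD40 and LTBR, BIRC3 (cIAP2) was called higher with 10.1 FPKM (7.59 and 12.6) and 24.96 FPKM (19.2 and 30.7). NFKB2 was past 1.5-fold (0.76) with overlapping bounds, and MAP3K14, RELB, BIRC2 and CHUK were not called and lay between -0.43 and 0.27.

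Among 8 death domain adaptors and effectors tested, MLKL, the effector of necroptosis, was called higher, with 7.47 FPKM (4.88 and 10.05) in MDA-MB-231 cells and 16.2 FPKM (10.87 and 21.6) in LM2. CFLAR, which encodes the caspase-8 inhibitor c-FLIP, stood at 42.1 FPKM (24.8 and 59.5) and 18.7 FPKM (10.8 and 26.6), a log2 change of -1.13 whose bounds overlap. The other 6, among which BID, RIPK1, CASP10 and CASP8 had the larger changes, were not called and lay between -0.36 and -0.03. RIPK3, also of this list, was under the filter, at 0.196 FPKM (0 and 0.427) in MDA-MB-231 cells and listed at 0 in LM2.

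The genes that cut these ligands and receptors or regulate this step gave 1 call among 8 (12.5%, beside 9.27% of all genes tested). ADAM10 fell from 79.4 FPKM (57.9 and 100.9) to 37.7 FPKM (27.4 and 48.0), a log2 change of -1.06. ADAM17, the sheddase of TNF, is named outside the rule after its values were seen and was at 15.0 and 15.6 FPKM. The inhibitor TIMP3 had a change of -0.65 with bounds that overlap. FURIN, RHBDF1, SPPL2B and RHBDF2 were not called, with changes of 0.48, 0.26, -0.20 and -0.22. In the list of other genes named for induction by TNF, which leaves out TNFAIP3 because it stands among the feedback genes, TNFAIP1, TNFAIP2, TNFAIP8 and TNFAIP8L1 were tested and not called, with changes from -0.43 to 0.08.

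**Figure D5:**
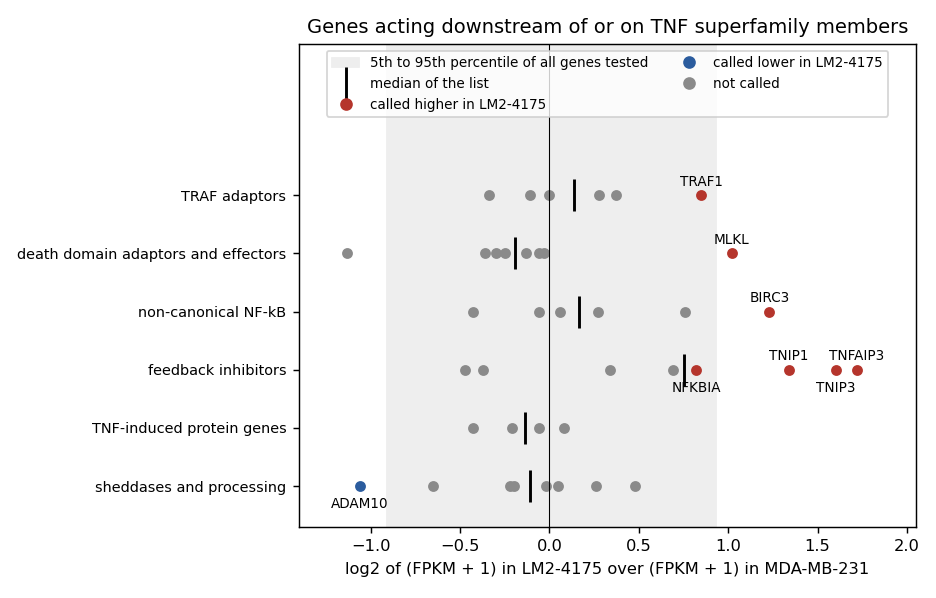
Log2 change of FPKM + 1 for genes of 6 pathway lists (points; red called higher, blue called lower, grey not called), with the median of each list as a black line. TNFAIP3, TNIP3, TNIP1 and NFKBIA stand to the right in the feedback list (median 0.75), and ADAM10 at -1.06 is the 1 gene called lower in the 6 lists.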

How the data were processed

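RNA from 2 libraries each of the MDA-MB-231 and the LM2-4175 line was sequenced in pairs of 150-base reads. According to the study's methods and the submitters' processing notes, TopHat2 placed the reads on hg19, and the authors deposited FPKM values of GENCODE v19 genes, computed with Cufflinks and Cuffdiff, with a lower and an upper bound in FPKM and a status. Library scaling and the use of strand are not given in the sources used here. The read depth behind a value is unknown from the table, and its precision was read from the bounds. For the members tested, the median distance from FPKM to upper bound was 33.5% of the FPKM in MDA-MB-231 and 33.8% in LM2.

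Here, log2 ratios were calculated in FPKM with a pseudocount of 1, using Python 3.11.15, pandas 2.3.3 and NumPy 2.4.6, and drawn with Matplotlib 3.10.9. The call (status OK in both, mean of at least 0.5 FPKM, 1.5-fold, bounds apart) was made over the whole table and also run on simulated data. The simulated noise was drawn from the same bounds that the call uses. That run therefore cannot show how the call fares with the spread between libraries. The call compares pooled libraries and gives no p-value. Limma had been planned for values per library and could not be run on 1 value per cell line. The members and lists were chosen with earlier results of these data known. The family genes outside the name rule and the lists of adaptors, death effectors, non-canonical NF-kB, feedback, TNF-induced and protease genes were written from general knowledge. Some genes of these lists are not reported here and enter none of the list counts. Values are given for every member that was called or reached 1 FPKM, for partners of called members, and, as a value or a range, for list genes that were called or among the 5 others of their list with the largest changes. Positions, gene types and exon overlaps on either strand come from GENCODE 44 on GRCh37, to which all 45 members were matched by Ensembl ID. Promoter windows come from RefSeq on GRCh38.p14 and were not joined to hg19 positions. Alternatives were another pseudocount, other filters, 2-fold, the fold alone, the bounds alone, 1.96 combined standard errors (a standard error being the upper bound less the FPKM, over 2), equal sums and centring on the median.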

Additional observations from a re-analysis of the deposited data

How the results depend on the processing

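Of 25 members followed, 18 kept their direction and their call under every alternative that could test them, among them CD70, TNFSF10, TNFSF15, TNFRSF10D and CD40. The members called higher numbered 5, and 2 with a mean of at least 5 FPKM (of 14 members tested) or 3 at 2-fold, where NGFR, TNFRSF19 and TNFSF4 were no longer called. With the fold alone or with standard errors, 7 members were higher, TNFRSF10C and TNFSF9 having joined, and the pathway genes called went from 7 to 9 higher and from 1 to 3 lower (CFLAR and TIMP3 having joined). TNFSF9 was also called with equal sums. Changes near 0 turned with equal sums in TNFRSF10A (0.04) and TNFSF12 (0.03), and after centring in TNFRSF10A (0.01). Among all genes, 649 higher and 641 lower calls became 1434 and 1640 with the fold alone, 919 and 1090 with standard errors, 450 and 403 at 2-fold, 735 and 547 with equal sums (57.3% of the calls higher, against 50.3%), and 321 and 443 with a mean of at least 5 FPKM. No paired analysis was possible because the table holds 1 pooled value per cell line, and for the same reason no replicate could be left out. The bounds limit what low genes such as FAS and TNFRSF25 can show.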

Other observations

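Genes of the family that carry other names were also read. RELT, a TNF receptor family member, was not called, with 6.69 FPKM in MDA-MB-231 cells (4.66 and 8.72) and 7.21 FPKM in LM2 cells (5.05 and 9.36). The ligand EDA was at 0.0757 and 0.147 FPKM, EDARADD, the adaptor of EDAR, at 0.0438 and 0.139 FPKM, and the readthrough gene TNFSF12-TNFSF13 at 0.0454 and 0.0790 FPKM, all under the filter.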
